A study of Mus musculus with 6 samples.

Results

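H3K36me3 peaks that followed each other at short distance were examined as runs in C3H10T1/2 cells, a multipotent mesenchymal line from mouse embryo. A run was a stretch of neighbouring peaks with less than 10 kb between each peak and the next, and the members were selected on the listed positions, as the peaks under 50 kb in runs of 3 or more. The gaps to the neighbours and the peak lengths are thus the values the members were chosen by. There were 1082 members in 348 runs, or 13.9% (95% interval 13.2 to 14.7) of the 7773 peaks in the H3K36me3 list. They covered 17.9 Mb, which was 11.4% of the bases under H3K36me3. The series held 6 libraries by chromatin immunoprecipitation and sequencing (ChIP-seq), with an input and a library per mark from each of 2 lines. Both lines stably expressed histone H3.3 with a FLAG-HA tag, in the wild-type form or with K36M, the exchange of lysine 36 for methionine. Cells were at passages 10 to 15, and each antibody and line had 1 library. The positions of the peaks came as 1 list per mark with no library or line named, so the values below are positions, lengths and distances in the mouse build mm9, and wild-type and K36M cells were not compared.

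H3K36me3 is the trimethylated form of lysine 36 of histone H3. In mammals the enzyme SETD2, which travels with elongating RNA polymerase II, places it over the bodies of transcribed genes, so that a marked stretch often follows the extent of a gene. H3K27me3 is placed by Polycomb repressive complex 2 over silent genes, where it can spread into broad domains, and nucleosomes that carry lysine 36 methylation are known as poor substrates for that complex. The K36M form of H3.3 is known from chondroblastoma, a tumour of cartilage, and inhibits methyltransferases that act on lysine 36.

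Most runs were short. Runs of 3 peaks numbered 258 (74.1% of the runs), and there were 67 runs of 4, 16 of 5 and 7 of 6, the largest number found. Of their 1164 peaks, 82 were 50 kb or longer and were not members; these lay in 70 runs, and the other 278 runs consisted of members alone. The runs spanned a median of 68.9 kb (interquartile range 47.4 to 93.5 kb, extremes 20.6 and 320.4 kb), and peaks covered a median of 87.5% of the span (38.0 to 97.9%). A run was mostly marked chromatin with short breaks, and the breaks of a run summed to a median of 8.2 kb. Every break is under 10 kb by the rule, so this is in part built in. In runs of 2, peaks covered a median of 91.6% of the span.

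The members were chosen for their nearness and for a length under 50 kb, and their lengths below that limit lay close to those of other peaks. The median member was 13.8 kb long (95% interval of the median 13.2 to 14.6), against 14.6 kb (14.0 to 15.2) for 2019 peaks under 50 kb in runs of 2 and 13.4 kb (13.0 to 13.8) for 4160 single peaks under 50 kb. Members under 5 kb were 9.89% (8.18 to 11.8), against 14.3% (13.3 to 15.4) of the single peaks, and those of 5 to 10 kb were 25.3% (22.8 to 28.0) against 22.2% (20.9 to 23.5). From 5 kb upwards the shares of the classes overlapped in their intervals. At 10 to 20 kb were 33.1% of members and 30.9% of single peaks. The shares were 17.9 and 17.7% at 20 to 30 kb, and 13.8 and 14.9% at 30 to 50 kb. At the limit itself, the longest members were 49.8 kb and the shortest peaks left out were 50 kb, and the gap just inside the rule was 9.8 kb and the gap just outside it 10 kb. There were 6 members of 48 kb and longer and 10 peaks of 50 to under 52 kb in the runs. The intervals here and below are binomial, exact for shares and by order statistics for medians. Those for a difference of 2 shares are by Newcombe's method. All cover counting alone. Neighbouring peaks are not independent, so the intervals are too narrow. No library-level replicate stands behind the lists, so no difference between sets of peaks was tested, and each is given as a description.

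The runs with the most peaks show how varied the arrangement was. On chromosome 9 a run from 70133801 to 70350800 held 6 peaks in 217 kb, in the order 4.2, 20.6, 84.2, 13, 39.6 and 33.8 kb, with gaps of 1.2, 7, 3.8, 3.8 and 5.8 kb. Its longest peak was above the limit and was not a member. On chromosome 13, from 105079801 to 105289400, a run of 209.6 kb began with peaks of 33.4, 70.2, 63.8 and 14.2 kb that were 1.2 to 1.4 kb apart and ended with peaks of 8 and 9.8 kb after gaps of 1.4 and 5 kb. The longest run made of members alone lay on chromosome 17 from 46281601 to 46419000, where 6 members of 3.4 to 43.2 kb took 84.6% of 137.4 kb. H3K27me3 peaks stood on both sides of that run, at 6.8 and 8.2 kb. On chromosome 16 (33843001 to 33965000), 6 members of 4.6 to 42.6 kb lay in 122 kb, and the nearest H3K27me3 peak was 719.6 kb away. On chromosome 14 (21494801 to 21612000), 6 members of 4.2 to 30.2 kb lay in 117.2 kb, with H3K27me3 at 4.8 kb on one side and 908.8 kb on the other. Runs with equally many peaks therefore stood both beside and far from H3K27me3.

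**Figure D1:**
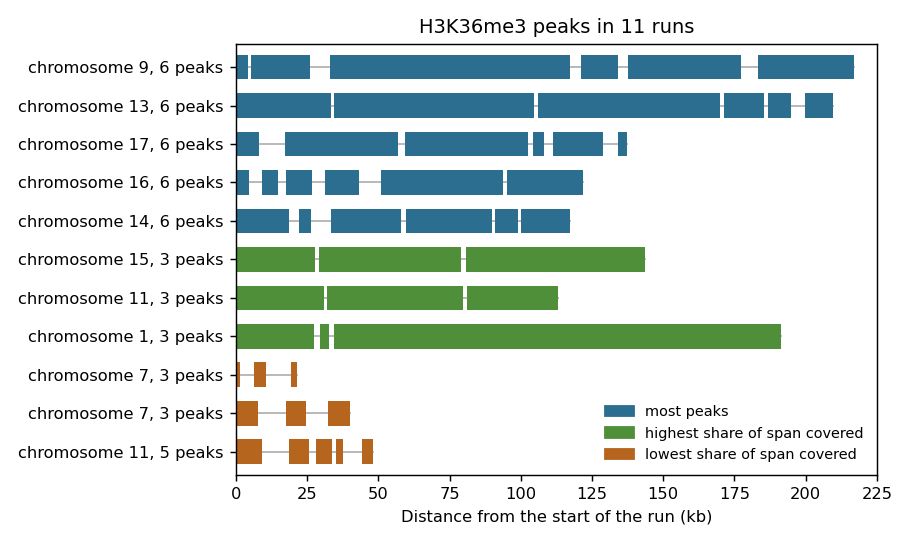
Peaks of 11 runs drawn to scale, with the distance from the start of the run in kb on the horizontal axis; blocks are H3K36me3 peaks and grey lines the gaps. The top 5 runs have 6 peaks each and span 117.2 to 217 kb, the next 3 have the highest share of their span under peaks (97.8 to 97.9%) and the last 3 the lowest (38.0 to 57.7%).

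After the run on chromosome 17, the longest runs made of members alone lay on chromosome 14 (103580201 to 103716600, 5 members in 136.4 kb), chromosome 5 (110565801 to 110697200, 4 in 131.4 kb), chromosome 2 (22926001 to 23057200, 3 in 131.2 kb) and chromosome 9 (45662401 to 45787800, 5 in 125.4 kb). The 3 members on chromosome 2 measured 33.2, 49.4 and 44.6 kb with gaps of 1.2 and 2.8 kb, so 97.0% of that run was under peaks. On chromosome 9 the 5 members had nearly even lengths of 15.4 to 23.6 kb, separated by 3.2 to 8 kb, and 80.4% was under peaks. None of these 5 runs came nearer than 6.8 kb to an H3K27me3 peak.

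The share of a run under peaks ranged from nearly continuous stretches to loose groups, with an interquartile range of 82.0 to 92.5%. The highest share was 97.9%, on chromosome 15 (91505201 to 91648800), where peaks of 27.8, 49.8 and 63 kb had 1.4 and 1.6 kb between them. The peak of 63 kb was not a member. A run of 3 members on chromosome 11 (72629601 to 72742800) came next, with 30.8, 47.8 and 32.2 kb and both gaps at 1.2 kb, the smallest gap of the list. Runs on chromosome 1 (196452801 to 196644000, 97.8%, and 151672801 to 151793600, 97.5%) and chromosome 17 (75622601 to 75792800, 97.5%) completed the 5 highest. Each of them held at least 1 peak of 50 kb or longer, which was not a member. At the other end, a run on chromosome 7 (28254001 to 28275600) consisted of members of 1.6, 4.2 and 2.4 kb with gaps of 4.6 and 8.8 kb, and 38.0% of its 21.6 kb was under peaks. Another on chromosome 7 (52063401 to 52103600) held members of 7.8, 7 and 8 kb with gaps of 9.8 and 7.6 kb, at 56.7%. A run of 5 members on chromosome 11 (48826001 to 48874200) followed at 57.7%, and its members were 2.6 to 9.2 kb. Runs on chromosome 10 (127979201 to 128001800, 58.4%), which held the shortest member, of 1.2 kb, and chromosome 19 (7271001 to 7310000, 60.5%) completed the 5 lowest. The 5 runs with the lowest share had no peak over 9.6 kb, whereas the 5 with the highest each had at least 1 peak of 47.8 kb or longer; the share depends on peak length as well as on the gaps.

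The gaps chose the members and are given as a description. The 816 gaps inside the runs had a median of 3.0 kb (95% interval 2.8 to 3.2, interquartile range 1.8 to 5.8 kb). All were multiples of 200 bp, the window in which the lists are laid out, and none was under 1.2 kb. The smallest size was also the most frequent, with 74 gaps (9.07%) at exactly 1.2 kb. Gaps under 2 kb numbered 229 (28.1%), gaps of 2 to 5 kb 334 (40.9%), and gaps of 5 to 10 kb 253 (31.0%). The numbers per kb fell from 171 at 2 to 3 kb to 54 at 4 to 5 kb and then stayed between 39 and 62 up to the limit. The gap of 9.8 kb occurred 6 times in the runs, and the list as a whole held 19 gaps of 10 kb, of which 1 lay beside a run of 3 or more.

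**Figure D2:**
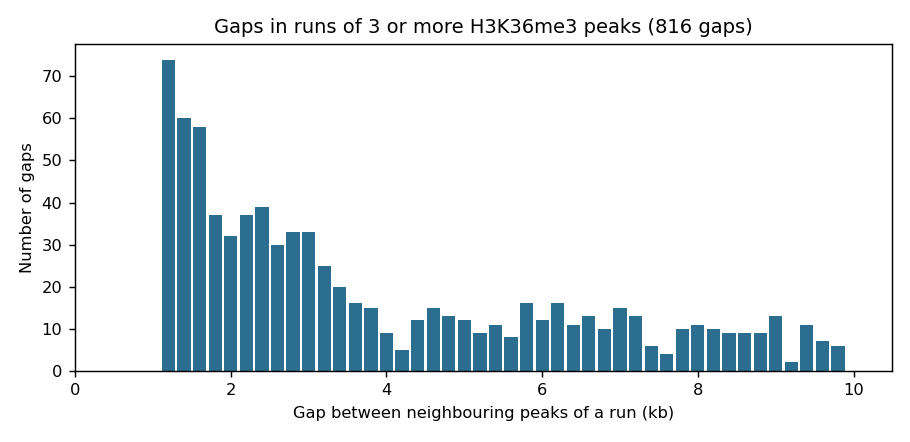
Number of gaps (vertical axis) by gap size in kb (horizontal axis), 1 bar per step of 0.2 kb, for the 816 gaps in runs of 3 or more H3K36me3 peaks. The bar at 1.2 kb is the highest, with 74 gaps, and no smaller gap occurs.

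Gap sizes were alike in runs of different size and at different places in a run. The 1077 gaps in runs of 2 also had a median of 3.0 kb (interquartile range 1.8 to 6.0), and medians were 3.0 kb in runs of 3 and of 4 and 3.2 kb in runs of 5 and of 6. In runs of 4 or more, 180 gaps next to an end peak had a median of 3.0 kb and 120 inner gaps 3.1 kb. The 106 gaps beside a peak of 50 kb or longer had a median of 2.7 kb (2.4 to 3.8), against 3.0 kb for the 710 gaps between members. Within a run of 3, the gap at the lower coordinate was the larger in 128 runs, the other in 119, and 11 runs had equal gaps. The 2 gaps of a run of 3 were weakly related (Pearson 0.091, Spearman 0.048 across 258 runs, a description over regions of 1 list), with a median of 5.0 kb for the larger and 2.0 kb for the smaller. Across the 816 gaps, the size of a gap was as weakly related to the summed length of the peaks beside it (Pearson -0.040, Spearman -0.024).

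Most runs had a gap of 5 kb or more. All gaps were under 2 kb in 21 runs (6.03%), under 3 kb in 79 (22.7%), under 5 kb in 154 (44.3%) and under 8 kb in 271 (77.9%). The largest gap of a run had a median of 5.5 kb and the smallest 1.8 kb. With a limit of 5 kb in place of 10 kb, 187 runs of 3 or more with 555 members were found, and with 2 kb there were 34 runs with 98 members. The signal between peaks is not listed, so runs of separate marked regions and single regions listed in pieces cannot be told apart.

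The lengths of the peaks followed no common order within the runs. In runs of 3, the medians were 15.5 kb (interval 13.6 to 17.8) at the lowest coordinate, 15.0 kb (13.8 to 16.0) in the middle and 13.5 kb (11.6 to 16.2) at the highest. Of 254 runs of 3 with unequal lengths, the longest peak was at the lowest coordinate in 81 (31.9%, interval 26.2 to 38.0), in the middle in 77 (30.3%, 24.7 to 36.4) and at the highest coordinate in 96 (37.8%, 31.8 to 44.1), where an even split would give equal counts. The shortest peak was at these places in 83, 85 and 86 runs. Lengths rose or fell steadily along the run in 92 (36.2%, 30.3 to 42.5). The order short, middle, long occurred 49 times and its mirror image 43 times, and the least frequent order, short, long, middle, occurred 34 times. The counts and medians by place, here and for larger runs, include peaks of 50 kb and longer, which are not members. Among 209 such runs of 3 made of members alone, the longest peak was first in 34.0%, in the middle in 30.6% and last in 35.4%. Coordinates run along the chromosome and not along genes, so these orders say nothing of the start or end of a transcript.

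**Figure D3:**
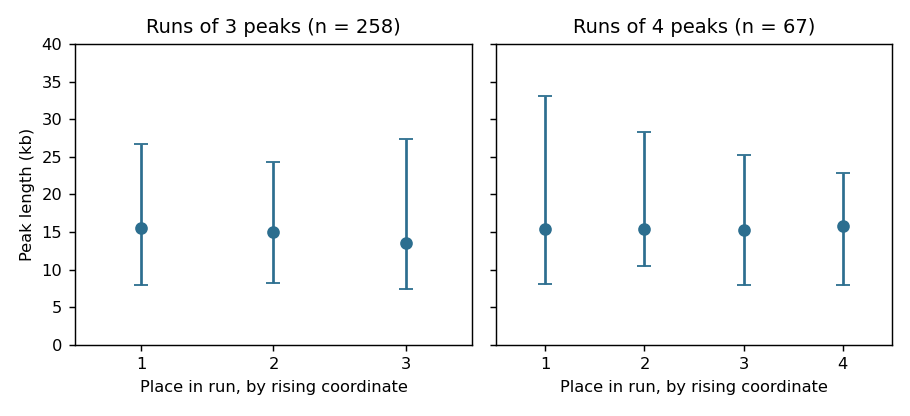
Peak length in kb by place in the run, counted along the chromosome, for runs of 3 (left, n = 258) and of 4 peaks (right, n = 67); points are medians and bars span the interquartile range. The medians lie between 13.5 and 15.8 kb at all 7 places, and the ranges overlap.

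The larger runs showed as little order. In runs of 4 the medians by place were 15.4, 15.4, 15.2 and 15.8 kb, and the longest peak was at an end in 37 of 66 runs with a single longest peak (56.1%, 43.3 to 68.3). In runs of 5 it was at an end in 8 of 16. In the 7 runs of 6 it was at an end in 0, a number too small to set a share (0 of 7 allows up to 41.0%). Over all runs, end members had a median of 13.8 kb (12.4 to 14.8) and inner members 14.0 kb (13.0 to 15.0).

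Peaks of unequal length lay in the same runs. The values here include peaks of 50 kb and longer, which are not members. The longest peak of a run was a median of 3.81 times the shortest (3.43 to 4.19), with medians of 29.9 and 7.2 kb. It was at least 5 times the shortest in 125 runs (35.9%), at least 10 times in 34 (9.77%) and under 2 times in 52 (14.9%). In 189 runs (54.3%, 48.9 to 59.6) a single peak held at least 50% of the bases under peaks, and in runs of 3 the longest held a median of 53.1%. For runs of 2 the median ratio was 2.09 (2.01 to 2.19); with more peaks in a run the ratio of the extremes grows by construction. The log2 lengths of neighbours were weakly related in the runs (Pearson 0.117, Spearman 0.106 over 816 pairs of neighbours). In runs of 2 the coefficients were 0.088 and 0.093. Neighbours not joined in a run, end peaks of runs included, gave 0.065 and 0.068 at 10 to 20 kb. They gave 0.096 and 0.103 at 20 to 50 kb and 0.046 and 0.048 at 50 kb or more. All were weak, and they showed no steady change with distance.

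Runs were found on every chromosome, and chromosome 11 carried the most. It held 40 runs with 131 members, or 33.7 runs per 100 Mb of the span between its outermost peaks, against 13.6 over all chromosomes. Its 5.33 H3K36me3 peaks per Mb were also the highest density, against 3.05 over all. Chromosome X was lowest in both, with 6.25 runs per 100 Mb and 1.51 peaks per Mb. Over the 20 chromosomes, runs per 100 Mb and peaks per Mb had a Pearson coefficient of 0.869 (Spearman 0.741), and 0.755 (0.645) without chromosomes 11 and X, the 2 farthest from the median density. Every run is made of peaks that are counted in the density, so the relation is in part built in.

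The share of a chromosome's H3K36me3 peaks that were members depends less directly on their number. It was highest on chromosome 11, at 20.7% (17.6 to 24.1), followed by chromosome 16 at 19.6% (15.2 to 24.7) and chromosome 9 at 17.7% (14.0 to 21.8). The intervals of these 3 lay above the overall 13.9%, that of chromosome 9 barely (from 13.98, against 13.92). Members come by whole runs and not singly, so these intervals are too narrow to set chromosomes apart. Chromosome 15 had the lowest share, at 8.23% (5.45 to 11.8), followed by chromosome 5 at 9.55% (7.15 to 12.4) and chromosome 12 at 9.74% (6.46 to 13.94). The intervals of chromosomes 15 and 5 lay below the overall share, as did that of chromosome 2 (10.3%, 8.05 to 13.0), and the interval of chromosome 12 reached it. Neighbours in this order overlapped in their intervals. Chromosomes 11 and 16 reached a like share with unlike densities, since chromosome 16 had 3.00 peaks per Mb, and chromosomes 2 and 5 were low at 3.47 and 3.46 peaks per Mb. Over the chromosomes, share and density had a Pearson coefficient of 0.371 (Spearman 0.310), which was 0.094 (0.195) without chromosome 11 and so rested on it.

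**Figure D4:**
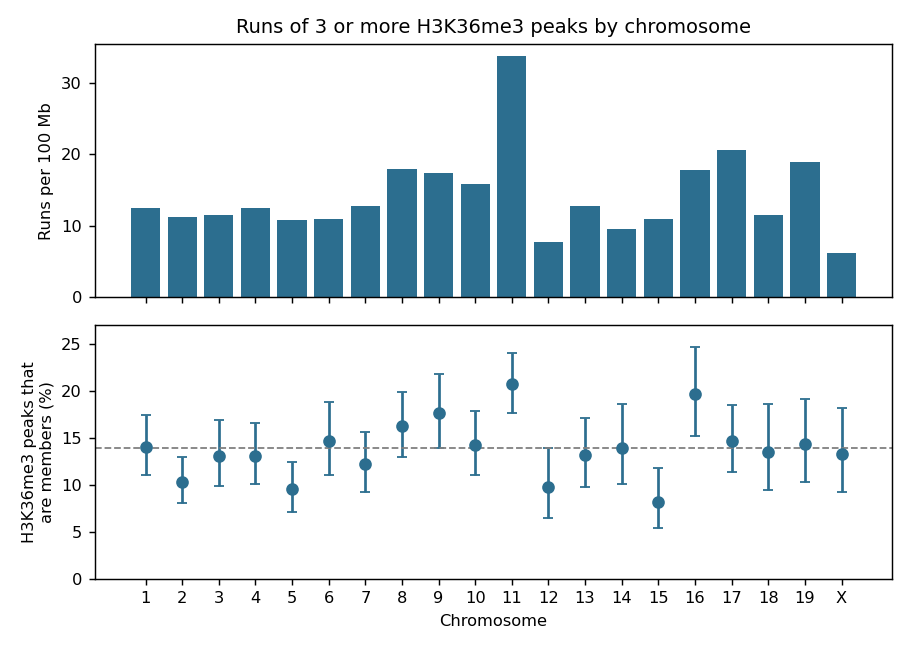
Runs per 100 Mb (top, bars) and percentage of the chromosome's H3K36me3 peaks that are members (bottom, points with exact 95% binomial intervals) for each chromosome; the dashed line is the share over all chromosomes, 13.9%. Chromosome 11 is highest in both panels (33.7 runs per 100 Mb, 20.7%), and chromosome 15 has the lowest share (8.23%).

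Along the chromosomes, runs were scattered, with a few dense places. The nearest other run was a median of 1.48 Mb away (1.09 to 1.75 Mb). It was nearer than 100 kb for 34 runs (9.77%) and nearer than 20 kb for 8. Of 533 windows of 5 Mb from the first to the last H3K36me3 peak, 316 (59.3%) held no run and 26 held 3 or more, and those 26 contained 95 runs (27.3%). The densest window, on chromosome 3 from 85000001 to 90000000, held 7 runs with 21 of its 42 H3K36me3 peaks and had 14 H3K27me3 peaks. The next, on chromosome 19 from 5000001 to 10000000, held 6 runs with 22 of 60 H3K36me3 peaks, beside 15 H3K27me3 peaks. Among windows with 5 runs was that on chromosome 8 from 85000001 to 90000000, with 15 of 37 peaks in runs. Over the whole list, 1164 of 7773 H3K36me3 peaks lay in runs, at 3.05 H3K36me3 peaks per Mb, and the H3K27me3 list held 3999 peaks. The windows named here were dense in H3K36me3 peaks as well as in runs. They were picked for the most runs, and each run holds 3 or more of the peaks counted, so this density is in part built in.

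Outside the run, the next H3K36me3 peak lay at a distance close to that of other peaks. Each flank of a run was at least 10 kb from it by the rule, and the median was 102.7 kb (91.6 to 120.4) over 692 flanks. For runs of 2 it was 106.8 kb (95.6 to 117.2) and for single peaks 110.4 kb (105.4 to 114.8), which are subject to the same limit. A peak nearer than 20 kb was found on 11.7% of the flanks of runs, 11.8% for runs of 2 and 11.9% for single peaks.

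Members that shared bases with H3K27me3 were few. They numbered 4 of 1082 (0.370%, interval 0.101 to 0.944), where 0.939% of all H3K36me3 peaks shared at least 1 base. All 4 belonged to a single run on chromosome 11, from 83023401 to 83075600, so that without this run the number was 0 of the remaining members. Its members of 8, 10.2, 15.4 and 8.4 kb lay wholly within an H3K27me3 peak of 116 kb (82985801 to 83101800), and 42 kb were under both marks. The lists name no line, so it is not known whether both marks were called there in the same cells.

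The spans of 3 of 348 runs (0.862%, 0.178 to 2.50) touched an H3K27me3 peak, one of them the run just described. This was near the 1.17% of the spans of all runs and single peaks, with 0.929% for runs of 2 and 1.26% for single peaks. On chromosome 7 (125247401 to 125358200), an H3K27me3 peak of 1.6 kb lay wholly under an H3K36me3 peak that was too long to be a member. On chromosome 19 (8778601 to 8847800), an H3K27me3 peak of 2.2 kb (8806601 to 8808800) lay wholly inside a gap of a run of 5 and shared no base with H3K36me3. In all, 4 of the 816 gaps in runs and 6 of the 1077 gaps in runs of 2 were touched by H3K27me3. The shortest H3K27me3 peak of the list was 1.2 kb, so the smallest gaps had little or no room for a separate peak.

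Measured from each peak, the median distance to H3K27me3 was greater for members than for single peaks. Every member has an H3K36me3 neighbour less than 10 kb away by the rule, so a greater distance is in part built in. The median distance of members was 111.6 kb (interval 101.6 to 121.8, interquartile range 44.3 to 237.8 kb), with shared bases counted as 0. It was 85.6 kb (77.8 to 92.0) for peaks under 50 kb in runs of 2 and 82.6 kb (77.0 to 88.4) for single peaks under 50 kb. The member median was above that of single peaks on 16 of 20 chromosomes. The medians of the length classes from 5 kb upwards were also higher for members, for example 127.4 kb against 73.8 kb at 10 to 20 kb and 119.8 kb against 76.4 kb at 30 to 50 kb. Under 5 kb the order was the other way, with 89.0 kb (64.8 to 108.2) for 107 members and 129.8 kb (109.6 to 146.6) for 595 single peaks.

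The shares near H3K27me3 differed, and those far from it were close. H3K27me3 was shared or within 10 kb for 62 members (5.73%, 4.42 to 7.29), where the share over all H3K36me3 peaks was 14.2%; within 10 kb means fewer than 10000 bp between the peaks. It was 10.6% (9.34 to 12.1) for peaks in runs of 2 and 18.1% (17.0 to 19.4) for single peaks, and the member share was below that of single peaks on 20 of 20 chromosomes. Members have a neighbour less than 10 kb away by the rule and single peaks do not, so the lower member share is in part built in. Within 50 kb the shares were 28.3% for members and 40.6% for single peaks, where 37.6% of all H3K36me3 peaks were within that distance. At 500 kb and more the shares were 9.98% for members and 10.3% for single peaks, beside 9.98% of all H3K36me3 peaks. The shares of both sets in regions far from H3K27me3 were thus close.

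Members of a run face each other, and a gap under 10 kb leaves little room for H3K27me3 between them, so the distance from a member is in part set by the rule that chose it. Inner members, which have a neighbour on both sides, were within 10 kb of H3K27me3 in 6 of 435 cases (1.38%, 0.508 to 2.98), and end members, which have an open side, in 56 of 647 (8.66%, 6.60 to 11.1). The distance was therefore also taken from the span of each run, where runs and single peaks have 2 open sides each. By span, 57 of 348 runs (16.4%, 12.6 to 20.7) were shared or within 10 kb, against 19.1% (16.8 to 21.6) of 1077 runs of 2 and 18.1% (16.9 to 19.2) of 4455 single peaks, where the share over all 5880 spans was 18.2%. The difference of -1.69 percentage points between runs and single peaks had an interval of -5.39 to 2.70, and the run share was the lower on 11 of 20 chromosomes. The median distance from the span was 89.1 kb (65.0 to 109.6) for runs and 83.2 kb (77.6 to 89.2) for single peaks.

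**Figure D5:**
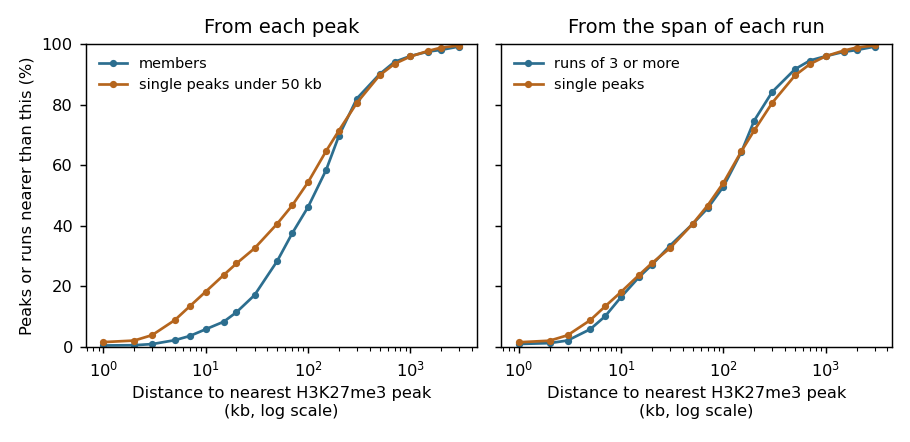
Cumulative percentage of peaks (left) or spans (right) nearer than each distance to the nearest H3K27me3 peak, in kb on a log axis. On the left the curve of the 1082 members lies below that of single peaks under 50 kb at short distances (5.73 against 18.1% within 10 kb), and on the right the curves of the 348 runs and of single peaks lie close together (16.4 against 18.1%). The difference on the left is in part set by the rule that chose the members.

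Each open flank gave a like picture. Of 683 flanks of runs that shared no base, 57 (8.35%, 6.38 to 10.7) had H3K27me3 within 10 kb, against 9.84% (8.61 to 11.2) for runs of 2 and 9.50% (8.89 to 10.1) for single peaks. H3K27me3 stood within 10 kb on a single flank for 51 runs and on both for 3. The stretch without H3K27me3 that contained a run had a median of 551 kb (510 to 642), and single peaks lay in stretches with a median of 560 kb (538 to 589). Runs took up a median of 11.2% of that stretch and single peaks 2.61%. The smallest such stretch around a run was 52.2 kb.

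Coverage by H3K27me3 rose with distance from the outer edges of the runs. For runs that shared no base it was 0.015% within 2 kb, 1.02% from 2 to 5 kb, 5.18% from 5 to 10 kb and 9.17% from 10 to 20 kb, and it reached 15.6% from 100 to 200 kb. For single peaks that shared no base the values were 0.133, 2.10, 6.61, 10.2 and 15.1%. Leaving out runs and single peaks that shared a base removes the H3K27me3 peaks that reach across an edge. The low coverage beside the edges is thus in part built in for both sets. Coverage beside runs was the lower on 16 and 15 of 20 chromosomes from 2 to 5 and from 5 to 10 kb. It was the lower on 13, 12 and 13 from 10 to 20, 20 to 50 and 50 to 100 kb, and on 10 from 100 to 200 kb. Beside runs of 2, coverage was 1.74% from 2 to 5 kb and 6.74% from 5 to 10 kb, below single peaks on 11 of 20 chromosomes in each class. The values near the runs of 3 or more rested on few bases. In the 3 classes up to 10 kb, 1.37, 2.06 and 3.44 Mb were examined beside these runs. Within 2 kb the covered bases came to a single window of 200 bp.

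The nearest H3K27me3 peak without sharing was 1.8 kb from the highest coordinate of a run of 3 members on chromosome 10 (126704201 to 126756600). Distances of 2.4 and 2.6 kb followed for 2 runs on chromosome 16 (20500001 to 20563200, 4 members, and 13111401 to 13150000, 3 members), 2.8 kb on chromosome 11 (78319001 to 78360400, 3 members) and 3 kb on chromosome 5 (48576401 to 48699600), where the first of 3 peaks was 85.6 kb and not a member. All 5 had H3K27me3 near on 1 side, and on the other side it was 106.6 to 726.4 kb away. The farthest run was on chromosome 12 (21268401 to 21361800), with members of 21.6, 25.6 and 38.2 kb and no H3K27me3 within 4081.2 kb. Runs of 3 members on chromosomes 7 (66498801 to 66570000), X (141880001 to 141932800), 6 (134396001 to 134438600) and 4 (73952201 to 73996400) were 3453.6, 3135.4, 2829.2 and 2129 kb away. The 5 nearest runs spanned 38.6 to 123.2 kb and the 5 farthest 42.6 to 93.4 kb. Peaks covered 79.7 to 85.5% of the span of 4 of the nearest runs and 97.1% of the run on chromosome 5, and 88.2 to 93.2% of the farthest. These are extremes, and no relation between distance and the share under peaks was computed over all runs.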

How the data were processed

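Per the labels' protocols, chromatin was cut with micrococcal nuclease and 5% kept as input. The submitters' processing notes name Bowtie 1.0.0 and mm9. How peaks were called, and from which libraries, is not given in the sources used here. The deposited lists hold positions alone, so the depth behind each peak is unknown. Starts were multiples of 200 bp and ends 1 bp before such a multiple; positions are printed counted from 1, with both ends included. A caller's joining of windows can set the smallest gaps (1.2 kb for H3K36me3, 10.2 kb for H3K27me3). Runs, lengths and distances were computed in Python 3.11.15 with numpy 2.4.6, pandas 2.3.3 and scipy 1.17.1, and tested on simulated data with known runs.

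The members and comparisons were chosen with earlier results of these data known. Runs named are, by 5 each, those with most peaks, the longest without a peak of 50 kb or longer, those with the highest and lowest share covered and those nearest to and farthest from H3K27me3; members sharing bases and the 3 windows of 5 Mb with most runs (ties by chromosome order) are added, and none on chromosome 18. Alternatives changed the gap (5 and 20 kb), the smallest run (4), the treatment of long peaks, the chromosomes, the length of H3K27me3 peaks, the distance (from spans, or 50 kb) and the bases shared (50% of the shorter peak). Added after seeing the data were end members alone, leaving out chromosome 11 or the run inside an H3K27me3 peak, and chromosome 11 against the other chromosomes. Gene names and sequences were not used here, because the tables at hand are on GRCm38 and coordinates were not converted.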

Additional observations from a re-analysis of the deposited data

How the results depend on the processing

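Of 108 values under 15 alternative settings, 79 stayed within 1.5 times the reported count or within the reported value's interval, 27 left it and 2 changed sign. Gaps under 5 kb gave 555 members, 187 runs, a median gap of 2.2 kb, a median H3K27me3 distance of 100.6 kb and 2.57 Mb between runs. Gaps under 20 kb gave 1877 members, 568 runs, 4.8 kb, 0.674 Mb and 9 members that shared a base, and turned the difference in spans within 10 kb (runs minus single peaks) to 0.831 percentage points. Runs of 4 or more gave 360 members, 90 runs, a length ratio of 5.15, 7.33 Mb, a share on chromosome 11 of 1.84 times the overall share (1.49 as reported) and a span difference of 1.93 points. That difference had an interval including 0 in all settings run. Runs of 3 were not in that setting, so it gave no place for their longest peak. Removing long peaks first lowered the length ratio to 3.31. H3K27me3 peaks of 5 kb and longer gave a median distance of 147.9 kb. Distances from spans gave 89.1 kb, 16.4% within 10 kb and a difference of -1.69 points from single peaks, against -12.4 as reported; within 50 kb the share was 28.3%. Per 100 Mb, chromosome 11 had 2.47 times the runs of all chromosomes. Chosen after seeing the data were end members alone, which gave 8.66%, a difference of -9.49 points and 2 sharing members, and leaving out chromosome 11, or the run inside an H3K27me3 peak, each of which left 0 sharing members, and setting chromosome 11 against the other chromosomes, which gave 1.56 times their share. Fewer peaks or other distances enter by construction; otherwise the cause was not tested. No paired analysis was possible because a single library was made per group and neither list is tied to a library.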
